A study of Homo sapiens with 16 samples.

Results

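The insulin-like growth factor (IGF) binding proteins IGFBP2, IGFBP3, IGFBP4, IGFBP5, IGFBP6 and IGFBP7, the protease PAPPA, the stanniocalcins STC1 and STC2 and the receptor IGF1R are 10 of the 23284 genes in the authors' deposited table. They were taken by gene symbol and were chosen by the group levels and deposited calls of these same data, which were in view, so the values below describe the genes and are not offered as evidence for the choice. The RNA came from WA01, a human embryonic stem cell line, driven toward neural crest, the embryonic population that gives rise to peripheral neurons, pigment cells and facial skeleton. The question was what removal of the FOXB1 protein does to expression on that path. The labels list 16 poly-adenylated RNA libraries in 8 groups of 2. At day 5, labelled neural crest, and at day 3, labelled pre-neural crest, there were a KO line, a Het line and 2 isogenic wild-type lines. KO and Het were made by CRISPR/Cas9 with a single guide RNA against the start of translation of FOXB1, a forkhead transcription factor, and each is a single edited line, so line and genotype cannot be told apart. All groups were plated at 20000 cells per cm2 with 3 µM CHIR99021, a GSK3 inhibitor that activates WNT signalling, and received 10 µM of the ROCK inhibitor Y-27632 at the start.

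IGF1 and IGF2 signal through the receptor tyrosine kinase IGF1R, and the binding proteins hold these ligands in the extracellular space, prolonging their life and limiting their access to the receptor. PAPPA is a secreted metalloprotease that cleaves IGFBP4 and IGFBP5 and so frees bound ligand. STC1 and STC2 bind PAPPA and inhibit it. IGFBP7 differs from the others in binding IGFs with low affinity.

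The table gives 1 FPKM (fragments scaled to transcript length and library size) per gene and group, with a single wild-type group per day. Which wild-type libraries entered it is not stated, and values per library were not at hand, so each level is given with the standard error (SE) that the deposited test scores imply. Depth per library is unknown. Between 13099 and 13562 genes reached 1 FPKM in a group. FOXB1 (chromosome 15, 60296421 to 60298142, hg19) had 1.86 ± 0.678 FPKM in KO, 4.47 ± 0.926 FPKM in Het and 5.51 ± 1.70 FPKM in wild type at day 5, and 15.5 ± 4.37 FPKM in KO, 7.73 ± 2.32 FPKM in Het and 18.3 ± 4.83 FPKM in wild type at day 3. Relative to wild type it was called lower in KO at day 5 and in Het at day 3. Since an edit at the start of translation can leave the message in place, the levels do not settle whether the protein was lost. Neural crest and border markers summed to 245 FPKM in KO, 98.7 FPKM in Het and 46.8 FPKM in wild type at day 5, with 9, 9 and 6 of 9 genes at 1 FPKM or more. Of these markers, SOX10 and FOXD3 stood at only 0.388 and 0.198 FPKM in wild type at day 5. SNAI2 stood at 23.2 FPKM there, the largest part of the wild-type sum and above the 19.5 FPKM of Het. In bulk RNA, fewer cells of a type and less RNA per cell cannot be told apart.

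PAPPA and IGFBP3 varied most across the 6 groups, so the 250 bases ahead of their start sites are shown, 5′ to 3′ on the gene's strand, from RefSeq on GRCh38.p14. They lie at chr9:116153541-116153790 on the plus strand for PAPPA and at chr7:45921273-45921522 on the minus strand for IGFBP3. Capitals mark every match, on either strand, to 4 short motifs.
PAPPA: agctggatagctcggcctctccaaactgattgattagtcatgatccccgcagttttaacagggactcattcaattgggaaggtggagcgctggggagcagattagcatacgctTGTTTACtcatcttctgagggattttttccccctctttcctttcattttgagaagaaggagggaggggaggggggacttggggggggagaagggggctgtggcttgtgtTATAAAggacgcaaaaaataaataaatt
IGFBP3: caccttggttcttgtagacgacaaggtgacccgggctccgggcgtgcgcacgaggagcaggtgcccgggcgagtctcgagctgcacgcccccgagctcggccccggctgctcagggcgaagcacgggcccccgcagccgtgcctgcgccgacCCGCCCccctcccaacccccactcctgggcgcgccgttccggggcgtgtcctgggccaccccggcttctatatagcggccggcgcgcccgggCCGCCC
The PAPPA stretch held the forkhead motif TGTTTAC with its first base at -137 from the start site and the TATA box TATAAA at -28. IGFBP3 held the GC box GGGCGG on the opposite strand at -98 and -6, printed as CCGCCC. Of 35116 promoter windows of this length, 2.98% held the forkhead motif, 10.7% the TATA box and 42.6% the GC box. The TCF/LEF motif CTTTGA, in 11.2% of windows, was in neither stretch. A match is a run of letters and says nothing of binding. RefSeq windows were found for 8 of the 10 genes.

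Calls below are those of the authors' deposited table at a q-value under 0.05. The table tested 9 of the 10 genes in every comparison used and IGFBP6 in none. KO against wild type at day 3 called 1 member higher and 2 lower, where 4.34% of all tested genes were called higher and 5.17% lower. Het against wild type at day 3 called 1 higher and 3 lower, beside 1.68% and 4.63% of all genes. KO against Het at day 3 called 1 higher and 0 lower, beside 2.30% and 0.540% of all genes. At day 5, KO against wild type called 1 higher and 2 lower, beside 7.58% and 5.68% of all genes. Het against wild type at day 5 called 0 higher and 2 lower, beside 1.14% and 1.02%, and KO against Het called 2 higher and 1 lower, beside 5.55% and 2.51%. For day 5 against day 3 the calls were 2 higher and 2 lower in KO, beside 7.29% and 4.53% of all genes. They were 1 higher and 1 lower in Het, beside 4.74% and 2.83%, and 3 higher and 0 lower in wild type, beside 11.2% and 10.4%. Because these contrasts were in view when the genes were chosen, nothing is read from the counts against those shares. The comparisons share groups, the wild-type ones above all, so their counts are not independent. The median log2 change of the 9 tested members lay between -0.55, for Het over wild type at day 5, and 0.57, for KO over Het at day 3, and that of all tested genes between -0.04 and 0.08 over the comparisons. PAPPA was called in 7 of the 9 comparisons, IGFBP3 in 5, IGFBP2 and STC2 in 4 each, STC1 in 3, and IGFBP5 and IGF1R in 1 each.

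**Figure D1:**
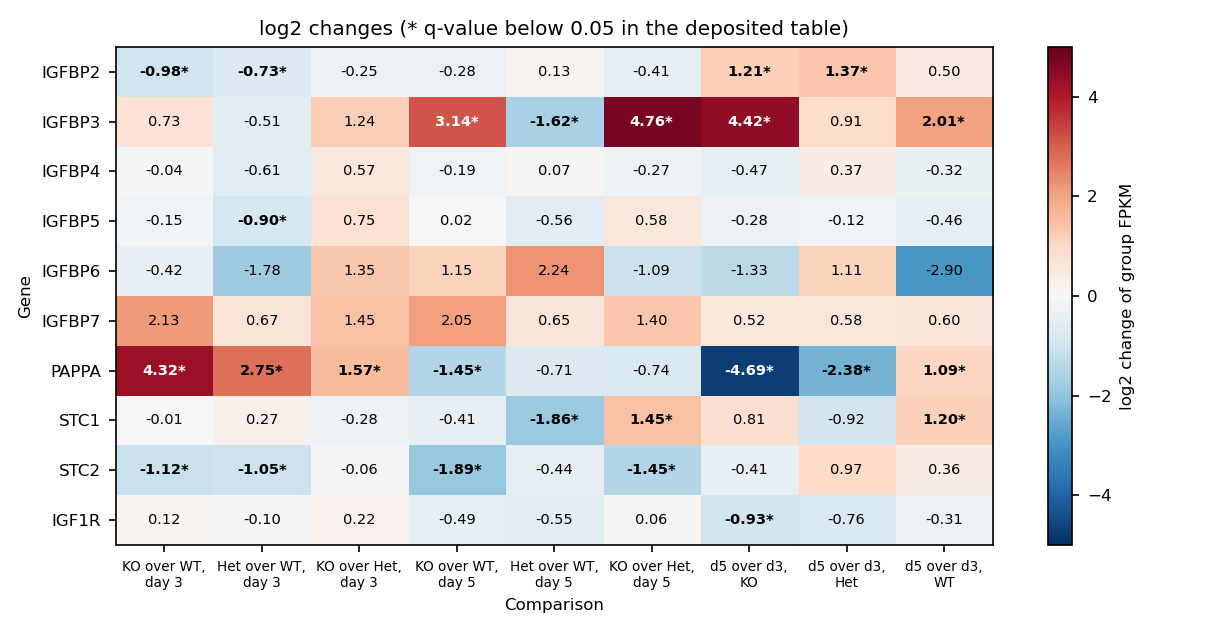
Log2 change of the group FPKM for the 10 genes (vertical axis) in the 9 comparisons (horizontal axis, with d5 and d3 for the days and WT for wild type), where red is higher and blue lower in the group named before "over", and an asterisk marks a q-value below 0.05 in the authors' deposited table. The deepest colours belong to IGFBP3 in KO at day 5, 4.76 over Het, and to PAPPA, 4.32 in KO over wild type at day 3 and -4.69 for KO at day 5 over day 3.

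PAPPA (chromosome 9, 118916071 to 119164600, hg19) was high only in the edited lines at day 3. Its level there was 13.6 ± 2.77 FPKM in KO and 4.60 ± 1.03 FPKM in Het, against 0.683 ± 0.200 FPKM in wild type. At day 5 it was 0.529 ± 0.164 FPKM in KO and 0.886 ± 0.264 FPKM in Het, against 1.45 ± 0.381 FPKM in wild type. The day 3 levels fall in 3 steps whose SE intervals do not meet, KO above Het and Het above wild type. The intervals of the 4 groups other than KO and Het at day 3, wild type at day 3 among them, form an overlapping chain. The log2 change of KO over wild type at day 3 was 4.32 (SE 0.51, q = 0.00126 in the authors' deposited table), the 28th largest rise of 14595 tested genes with a level above 0 in both groups. In Het it was 6.73-fold higher than in wild type, a log2 change of 2.75 (SE 0.53), and KO exceeded Het by 1.57 (SE 0.44). At day 5 the order was turned round, with KO called 1.45 below wild type on the log2 scale (SE 0.59), while Het, at -0.71 relative to wild type, was not called. With time PAPPA went opposite ways in the edited lines and in wild type: at day 5 it was lower than at day 3 in KO (-4.69, SE 0.53) and in Het (-2.38, SE 0.54) and higher in wild type (1.09, SE 0.57), all 3 called. The time change thus differed from that of wild type by -5.77 in KO (SE 0.78) and by -3.46 in Het (SE 0.78). The KO fall was the 15th largest of 14892 tested genes. With 1 FPKM added to every level, the log2 change of KO over wild type at day 3 was 3.12 and that of Het over wild type was 1.73. PAPPA was under 1 FPKM in 3 groups, so that 6 of its 7 calls drop out where both groups must reach 1 FPKM, leaving KO over Het at day 3.

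The summed markers of primitive streak, mesoderm and endoderm had the order of PAPPA at day 3 and the opposite order at day 5. Their summed level was 28.9 FPKM in KO, 3.98 FPKM in Het and 1.44 FPKM in wild type at day 3, with 4, 1 and 0 of 5 genes at 1 FPKM or more and SOX17 at 0 in wild type. At day 5 the sum was 4.30 FPKM in KO, 1.74 FPKM in Het and 0.525 FPKM in wild type, where SOX17 was at 0 in Het and wild type and T at 0 in Het. KDR made up most of the Het and wild-type sums, at 3.45 and 0.971 FPKM at day 3 and 1.63 and 0.404 FPKM at day 5. T was lower in Het than in wild type on both days. Both the sum and PAPPA were lower at day 5 in the edited lines, while in wild type only PAPPA was higher at day 5. Pluripotent markers summed to 151 FPKM in KO, 68.8 FPKM in Het and 112 FPKM in wild type at day 3, with 5, 3 and 4 of 5 genes at 1 FPKM or more. At day 5 they summed to 46.1, 53.7 and 65.1 FPKM in those groups, with 4, 2 and 2 of 5 genes at 1 FPKM or more. None was at 0 on either day. The day 5 sum had the order of PAPPA and was mostly DPPA4, at 34.6, 46.9 and 59.5 FPKM in KO, Het and wild type. PRDM14 had that order too, under 1 FPKM in each line. POU5F1, at 8.56, 4.79 and 3.61 FPKM, and NANOG, at 1.25, 0.944 and 0.798 FPKM, had the opposite order. TDGF1 was highest in KO, at 1.27 FPKM. Neural crest and border markers at day 3 summed to 82.8 FPKM in KO, 62.2 FPKM in Het and 13.5 FPKM in wild type. SNAI2 and ETS1 did not have that order and were highest in Het, at 9.85 and 2.40 FPKM. The part of these 3 marker lists in the PAPPA levels was not tested.

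IGFBP3 (chromosome 7, 45951844 to 45960871, hg19), the main carrier of IGFs in blood, was abundant in 1 group, KO at day 5. It reached 60.2 ± 14.1 FPKM there, against 2.22 ± 0.776 FPKM in Het and 6.82 ± 1.89 FPKM in wild type. At day 3 it stood at 2.81 ± 0.833 FPKM in KO, 1.19 ± 0.398 FPKM in Het and 1.69 ± 0.611 FPKM in wild type. Wild type at day 5 came next in order, apart from KO above it and from the 4 lower groups, whose intervals overlapped from neighbour to neighbour. KO and Het lay on opposite sides of wild type at day 5: KO was 8.82-fold higher, a log2 change of 3.14 (SE 0.52, q = 0.00126 in the authors' deposited table), and Het was lower, at -1.62 (SE 0.64, q = 0.0132 in the same table). The Het call was lost with q below 0.01 and with adjustment within the comparison. The KO level was 27.1-fold that of Het. No day 3 difference in IGFBP3 was called, the widest being 1.24 for KO over Het. Between day 3 and day 5 IGFBP3 rose 21.5-fold in KO, the 57th largest rise of 14892 genes, and by 2.01 on the log2 scale in wild type (SE 0.66), and the 0.91 of Het was not called. KO thus exceeded the wild-type time change by 2.41 (SE 0.85), and Het differed from it by -1.11 (SE 0.96). The sum of neural crest and border markers was also highest in KO at day 5, at the 245 FPKM given above. Epidermis and placode markers summed to 6.24 FPKM in KO, 1.21 FPKM in Het and 1.63 FPKM in wild type at day 5, with 1 of 5 genes at 1 FPKM or more in each, KRT14 at 0 in KO and Het and KRT5 at 0 in KO and wild type. Most of each sum was EYA1, a placode gene, at 5.96 FPKM in KO, 1.03 FPKM in Het and 1.55 FPKM in wild type. The part of these markers in the IGFBP3 level was not tested.

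**Figure D2:**
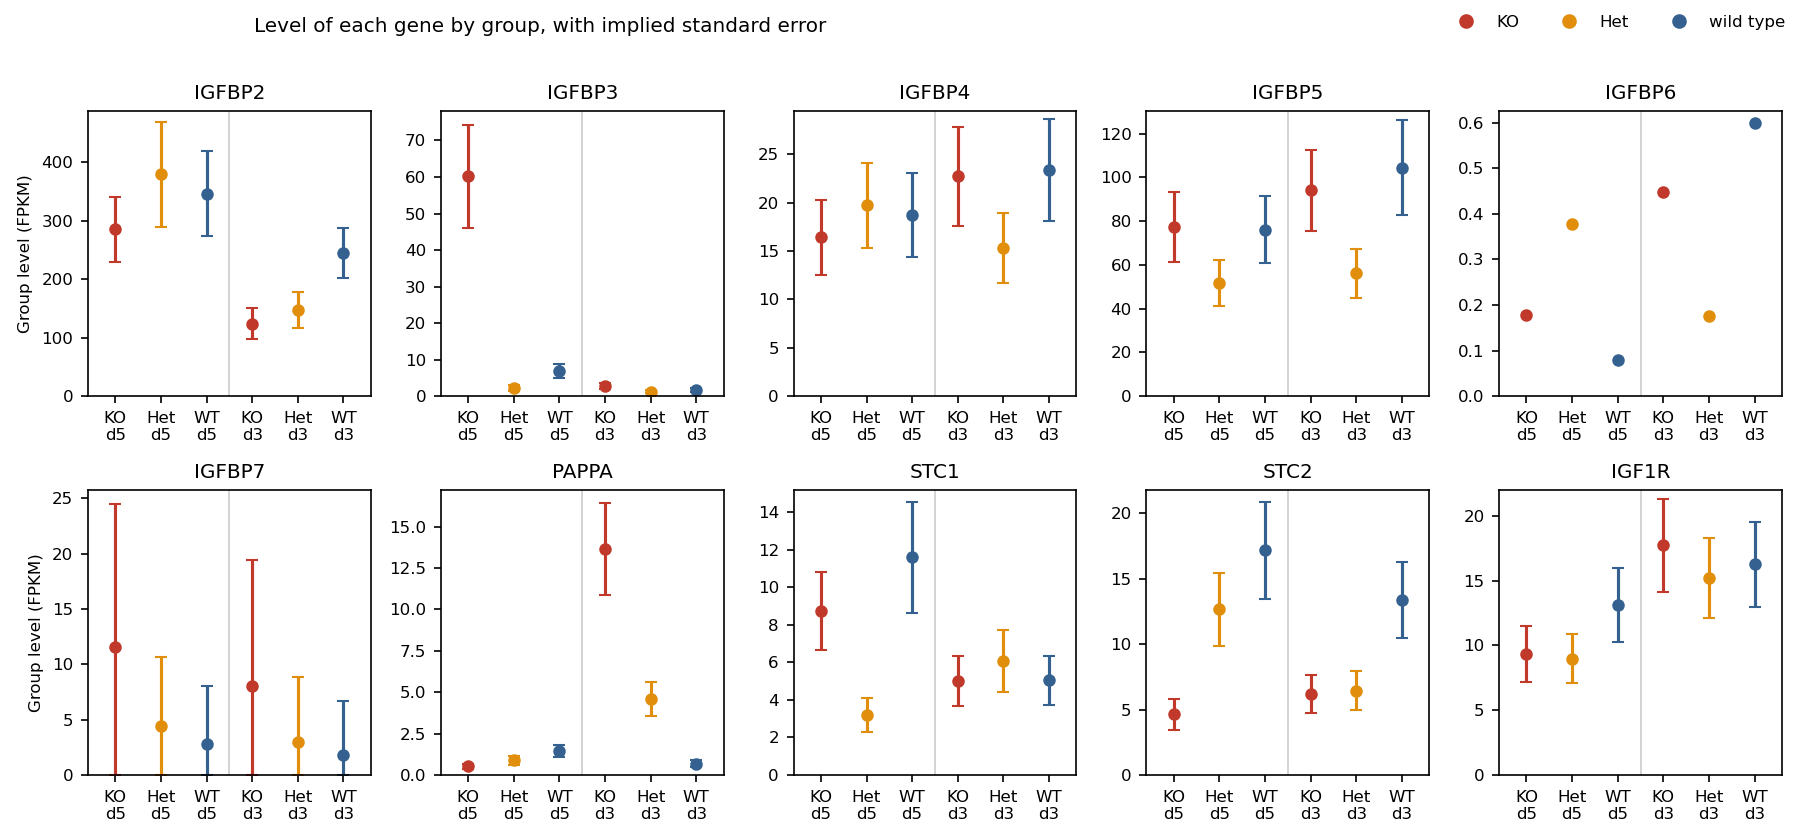
Level of each of the 10 genes (vertical axis, FPKM, a separate scale per gene) in KO, Het and wild type (WT) at day 5 (d5) and day 3 (d3), where points are deposited group values and bars the implied SE, cut at 0 for IGFBP7, and IGFBP6 has no bar because it was not tested. PAPPA peaks in KO at day 3 at 13.6 FPKM and IGFBP3 in KO at day 5 at 60.2 FPKM, while IGFBP4 stays between 15.3 and 23.4 FPKM.

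IGFBP2 and IGFBP5 had the highest listed levels of the binding proteins in all 6 groups. In KO at day 5 the IGFBP5 interval overlapped that of IGFBP3. IGFBP2 and IGFBP5 are neighbours on chromosome 2 (217498127 to 217529158 and 217536828 to 217560272, hg19). IGFBP2, a binding protein of fetal tissue and fluids with a preference for IGF2, had 285 ± 55.7 FPKM in KO, 379 ± 89.6 FPKM in Het and 346 ± 72.4 FPKM in wild type at day 5. At day 3 it had 124 ± 26.8 FPKM in KO and 147 ± 30.4 FPKM in Het, against 244 ± 42.8 FPKM in wild type. The wild-type interval at day 3 overlapped those of wild type and KO at day 5, though not that of Het, and lay above the day 3 intervals of both edited lines. The day 3 log2 changes relative to wild type were -0.98 in KO (SE 0.40, q = 0.00682 in the authors' deposited table) and -0.73 in Het (SE 0.39, q = 0.0444 in that table), and no day 5 difference was called. The Het call was lost with q below 0.01, with adjustment within the comparison and within bins of GC content, and both were lost with a 2-fold minimum. From day 3 to day 5 IGFBP2 rose by 1.21 in KO (SE 0.42) and by 1.37 in Het (SE 0.45), and the 0.50 of wild type was not called. Within bins of GC content the wild-type change was 0.78 and was called. Those 2 time changes exceeded the wild-type one by 0.70 in KO (SE 0.58) and 0.86 in Het (SE 0.60), little more than their errors. Mesenchyme markers summed to 16.4, 16.7 and 19.0 FPKM in KO, Het and wild type at day 5. At day 3 the sums were lower, at 7.12, 3.84 and 3.58 FPKM. In each group 1 or 2 of 3 genes reached 1 FPKM and none was at 0. Most of each sum was COL1A1, at 14.5, 16.5 and 18.8 FPKM at day 5 and 5.78, 3.25 and 3.26 FPKM at day 3. PRRX1 was lower at day 5 than at day 3 in Het (0.0730 against 0.535 FPKM) and wild type (0.124 against 0.258 FPKM). In KO it was higher (1.48 against 1.19 FPKM). TWIST1 was higher at day 5 in all 3 lines but under 1 FPKM throughout. The part of these markers was not tested.

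IGFBP5, a binding protein found in developing muscle and bone matrix and a PAPPA substrate, differed less. Its level was 77.2 ± 15.9 FPKM in KO, 51.6 ± 10.5 FPKM in Het and 76.1 ± 15.4 FPKM in wild type at day 5. The day 3 values were 94.0 ± 18.7 FPKM in KO, 56.1 ± 11.1 FPKM in Het and 104 ± 21.6 FPKM in wild type. Het was the lowest line on both days, and its deficit at day 3, -0.90 on the log2 scale relative to wild type (SE 0.41, q = 0.00749 in the authors' deposited table), was the gene's only call, lost with a 2-fold minimum. At day 5 the Het change of -0.56 was not called.

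The other PAPPA substrate, IGFBP4 (chromosome 17, 38599676 to 38613982, hg19), was called in no comparison. It had 16.4 ± 3.83 FPKM in KO, 19.7 ± 4.35 FPKM in Het and 18.7 ± 4.36 FPKM in wild type at day 5, and 22.7 ± 5.09 FPKM in KO, 15.3 ± 3.61 FPKM in Het and 23.4 ± 5.23 FPKM in wild type at day 3. All neighbours in the order of its levels overlapped. IGFBP6 (chromosome 12, 53491436 to 53496128, hg19), which prefers IGF2, was scarce, with 0.178 FPKM in KO, 0.378 FPKM in Het and 0.0800 FPKM in wild type at day 5, and 0.447 FPKM in KO, 0.175 FPKM in Het and 0.599 FPKM in wild type at day 3. No error is known for these IGFBP6 levels, and no order is read from them. IGFBP7 was listed at 11.6 ± 12.9 FPKM in KO, 4.40 ± 6.23 FPKM in Het and 2.81 ± 5.28 FPKM in wild type at day 5, and at 8.08 ± 11.4 FPKM in KO, 2.95 ± 5.90 FPKM in Het and 1.85 ± 4.87 FPKM in wild type at day 3. KO had the highest listed value on each day, but every IGFBP7 error exceeded its level, and differences were not detectable at this precision. Its table entry spans 226 kb of chromosome 4 (57845109 to 58071465, hg19) and is shared with POLR2B, an RNA polymerase II subunit at 58.5 to 80.3 FPKM.

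Summed over the 6 genes, binding-protein message was listed at 451 FPKM in KO, 457 FPKM in Het and 451 FPKM in wild type at day 5. The sums and shares carry no SE. That of IGFBP2 alone was 55.7, 89.6 and 72.4 FPKM in these groups, so the close match of the sums is finer than their precision. At day 3 the sum was 252 FPKM in KO and 223 FPKM in Het, against 376 FPKM in wild type. At day 5 the listed make-up differed more between the lines than the listed sum. IGFBP2 made up 63.3% of it in KO, 82.9% in Het and 76.8% in wild type at day 5. IGFBP3 made up 13.3% in KO, 0.486% in Het and 1.51% in wild type at that day. At day 3 the IGFBP2 share was 49.1% in KO, 66.0% in Het and 64.9% in wild type, and IGFBP5 took 37.3%, 25.2% and 27.8%. FPKM is scaled to transcript length, so these are shares of message and not of protein.

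**Figure D3:**
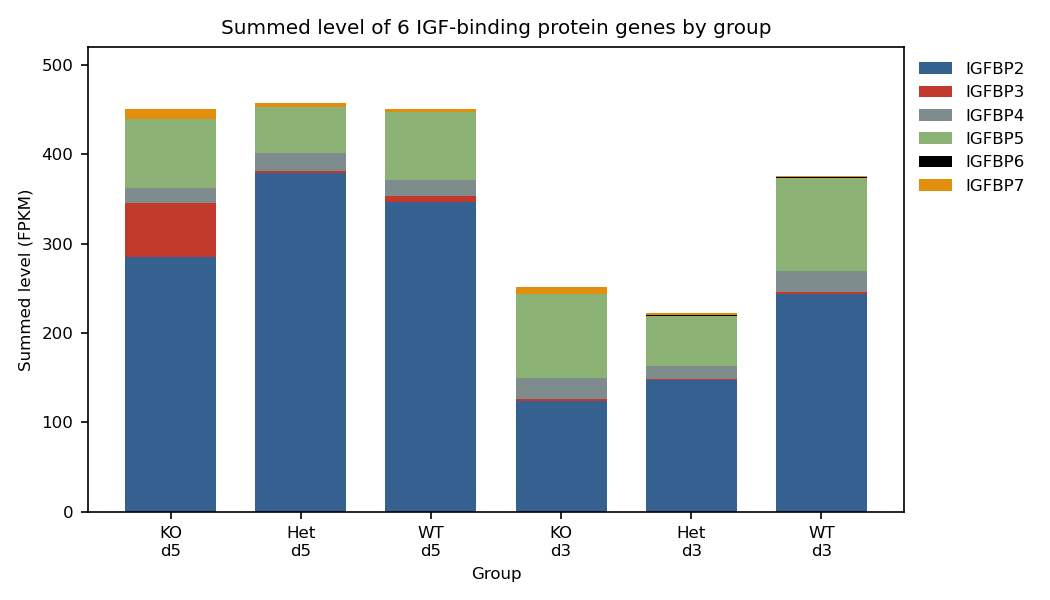
Summed FPKM (vertical axis) of IGFBP2, IGFBP3, IGFBP4, IGFBP5, IGFBP6 and IGFBP7, stacked by gene, in KO, Het and wild type (WT) at day 5 (d5) and day 3 (d3). The 3 day 5 bars reach 451 to 457 FPKM, and the red IGFBP3 segment is wide only in KO at day 5, at 13.3% of the bar.

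The stanniocalcins, inhibitors of PAPPA, did not move together. STC2 (chromosome 5, 172741726 to 172756506, hg19), a glycoprotein that inhibits PAPPA by binding it covalently, had 4.63 ± 1.21 FPKM in KO, 12.7 ± 2.79 FPKM in Het and 17.2 ± 3.71 FPKM in wild type at day 5. At day 3 it had 6.17 ± 1.44 FPKM in KO and 6.45 ± 1.52 FPKM in Het, against 13.4 ± 2.89 FPKM in wild type. Wild type at either day and Het at day 5 had overlapping intervals above those of the other 3 groups. KO was thus low on both days, with log2 changes relative to wild type of -1.89 at day 5 (SE 0.49, q = 0.00126 in the authors' deposited table) and -1.12 at day 3 (SE 0.46, also q = 0.00126 in that table). Het was lower at day 3, at -1.05 (SE 0.46), and was not called at day 5, at -0.44, so that KO was 1.45 below Het on the log2 scale there (SE 0.49). No time change of STC2 was called. Neural progenitor markers were lower in KO on both days as well, at 60.6 FPKM in KO, 123 FPKM in Het and 169 FPKM in wild type at day 5 and 80.5, 105 and 198 FPKM in those groups at day 3, with 2 to 4 of 4 genes at 1 FPKM or more and none at 0, and their part was not tested.

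STC1, the homologous inhibitor (chromosome 8, 23699434 to 23712320, hg19), had 8.73 ± 2.08 FPKM in KO, 3.20 ± 0.911 FPKM in Het and 11.6 ± 2.96 FPKM in wild type at day 5. At day 3 the 3 lines differed by less than their errors, at 5.00 ± 1.33 FPKM in KO, 6.06 ± 1.67 FPKM in Het and 5.04 ± 1.32 FPKM in wild type. Here Het, not KO, was the line that stood apart at day 5. STC1 was lower in Het than in wild type by a log2 change of -1.86 (SE 0.55, q = 0.00126 in the authors' deposited table), the 29th largest fall of 14483 genes, and KO was 1.45 above Het (SE 0.54). In wild type STC1 rose by 1.20 with time (SE 0.53), and the -0.92 of Het and 0.81 of KO were not called. The Het time change differed from the wild-type one by -2.13 (SE 0.78).

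Set against its inhibitors, PAPPA message was highest in KO at day 3. Its FPKM divided by the summed FPKM of STC1 and STC2 was 1.22 ± 0.328 in KO and 0.367 ± 0.105 in Het at day 3, against 0.0371 ± 0.0126 in wild type (SE, from the implied errors taken as independent). In KO at day 3 PAPPA and the summed inhibitors differed by 2.47 FPKM (SE 3.39), within 1 SE. At day 5 the ratio was 0.0396 ± 0.0142 in KO, 0.0559 ± 0.0196 in Het and 0.0503 ± 0.0156 in wild type. At day 3 the numerator and the denominator moved apart in KO, PAPPA being higher and STC2 lower than in wild type, while at day 5 the low PAPPA and low STC2 of KO left the ratio near that of wild type.

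The receptor IGF1R (chromosome 15, 99192761 to 99507759, hg19) varied little. Its level was 9.32 ± 2.15 FPKM in KO, 8.97 ± 1.89 FPKM in Het and 13.1 ± 2.86 FPKM in wild type at day 5, and 17.7 ± 3.56 FPKM in KO, 15.2 ± 3.11 FPKM in Het and 16.3 ± 3.30 FPKM in wild type at day 3. The listed level was lower at day 5 in all 3 lines, and only the KO change was called, at -0.93 (SE 0.44, q = 0.0285 in the authors' deposited table), a call lost with q below 0.01 or a 2-fold minimum. No difference between lines was called on either day, the widest being -0.55 for Het over wild type at day 5. KO differed from the wild-type time change by -0.61 (SE 0.62), within 1 SE.

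Of 43 other genes of the IGF pathway, 34 were tested and 24, or 70.6%, were called at least once in the 9 comparisons, beside 36.6% of the 15705 genes tested at least once. Nothing particular to the pathway is read from this. Their median log2 change lay between -0.16, for Het over wild type at day 5, and 0.26, for KO over Het at day 5. The ligand IGF1 was listed at 0.217 to 0.355 FPKM and was not tested, and INS was listed at 0 in all groups. IGF2, the fetal ligand, had 5.04 FPKM in KO at day 5, against 1.33 FPKM in Het and 0.880 FPKM in wild type. Its level at day 3 was 1.10 FPKM in KO, 0.621 FPKM in Het and 0.628 FPKM in wild type. IGF2 was thus highest in the group in which IGFBP3 was highest. Its log2 change at day 5 was 2.52 for KO over wild type (SE 0.65) and 1.92 for KO over Het (SE 0.68), and in KO it rose by 2.19 with time (SE 0.64). The IGF2 entry shares its table locus with INS and IGF2-AS1, and how reads were divided among them is uncertain.

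Between the lines at day 5, KO against wild type called 5 pathway genes higher and 6 lower. Beside IGF2, the largest rises were SHC1, a receptor adaptor, at 1.22 (SE 0.43) and PIK3R2, a PI3-kinase regulatory subunit, at 1.07 (SE 0.43). The deepest fall was that of IRS1, the docking protein that links IGF1R to PI3-kinase, at -2.65 (SE 0.47), with 3.15 FPKM in KO, 12.7 FPKM in Het and 19.9 FPKM in wild type. CYR61, a matricellular protein with an IGFBP-like domain, was at -2.55 (SE 0.47) and IRS2, the other main docking protein, at -1.63 (SE 0.49). The calls in KO therefore included a higher ligand and lower docking proteins. They also included a higher receptor IGF2R, at 32.8 FPKM in KO against 16.1 FPKM in wild type (q = 0.00316 in the authors' deposited table). The IGF2 call over wild type was lost where both groups must reach 1 FPKM. Het against wild type at day 5 called 0 higher and 3 lower, namely CYR61 at -1.96 (SE 0.45), FOXO1, a transcription factor restrained by AKT, at -1.19 (SE 0.56) and CTGF, a relative of CYR61, at -1.17 (SE 0.45). KO against Het called 4 higher and 1 lower, with CRIM1, a membrane protein with an IGFBP-like domain, at 1.35 (SE 0.51), SHC1 at 0.96 (SE 0.44) and IRS1 at -2.01 (SE 0.49). SHC1 lies on the distal part of chromosome 1, where the median gene also differed, by 0.37 for KO over wild type and 0.45 for KO over Het at day 5.

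Between the lines at day 3 fewer pathway genes were called. Of all tested genes, KO against wild type called 9.51% at day 3 and 13.3% at day 5. KO against Het called 2.84% and 8.06% of all tested genes on those days, and Het against wild type 6.31% and 2.16%. Nothing particular to the pathway is read from the difference between the days. KO against wild type called 2 higher and 3 lower, with CTGF at 1.03 (SE 0.45) and SHC1 at 1.00 (SE 0.41), where the median gene of distal chromosome 1 stood at 0.60. The lower genes were IGFBPL1, a relative of the binding proteins, at -1.08 (SE 0.45), IRS1 at -1.04 (SE 0.44) and AKT1, the kinase below PI3-kinase, at -0.90 (SE 0.45). Het against wild type called 1 higher, CTGF at 1.20 (SE 0.45), and 1 lower, IGFBPL1 at -1.13 (SE 0.46). IGFBPL1 had 48.0 FPKM in KO and 46.4 FPKM in Het, against 102 FPKM in wild type, and like IGFBP2 and STC2 it was called lower in both lines. Both of its calls were lost within bins of GC content, as was the AKT1 call in KO. KO against Het called 2 higher and 0 lower, GRB14, an adaptor that restrains insulin-family receptors, at 1.70 (SE 0.51) and SHC1 at 1.01 (SE 0.42).

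With time, wild type called 10 pathway genes higher and 9 lower, KO 4 higher and 5 lower, and Het 1 higher and 3 lower. Of all tested genes, 21.6% were called with time in wild type, 11.8% in KO and 7.57% in Het. GRB14 was lower at day 5 in every line, at -2.95 in KO (SE 0.55), -1.72 in Het (SE 0.59) and -2.33 in wild type (SE 0.61). GRB10, its paralogue, was lower too, at -1.40 in KO (SE 0.45), -0.88 in Het (SE 0.42) and -0.89 in wild type (SE 0.42). HTRA1, a secreted protease that can cleave binding proteins, rose by 1.57 in KO (SE 0.55), 1.77 in Het (SE 0.55) and 1.05 in wild type (SE 0.54). CTGF was called in opposite directions: it was lower in KO, at 24.8 FPKM at day 5 and 49.6 FPKM at day 3, and in Het, at 26.8 and 55.5 FPKM on those days, but higher in wild type, at 60.3 and 24.2 FPKM. In KO, CRIM1 also rose by 1.06 (SE 0.50), and IGF2BP1, which binds IGF2 messenger RNA, was at -1.33 (SE 0.43). In wild type the rises included CYR61 at 1.66 (SE 0.45) and CTGF, and the largest falls beside GRB14 were TSC2, a brake on mTOR, at -1.13 (SE 0.61) and IGF2R, which takes up IGF2 for degradation, at -0.99 (SE 0.42). The TSC2 entry shares its table locus with PKD1. Within bins of GC content the TSC2 call in wild type was lost, as was the CRIM1 call in KO. The counts of pathway genes stand against the shares of all genes given above for each comparison. Their calls rest on q-values in the authors' deposited table, and the list was drawn up with earlier results of these data known.

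**Figure D4:**
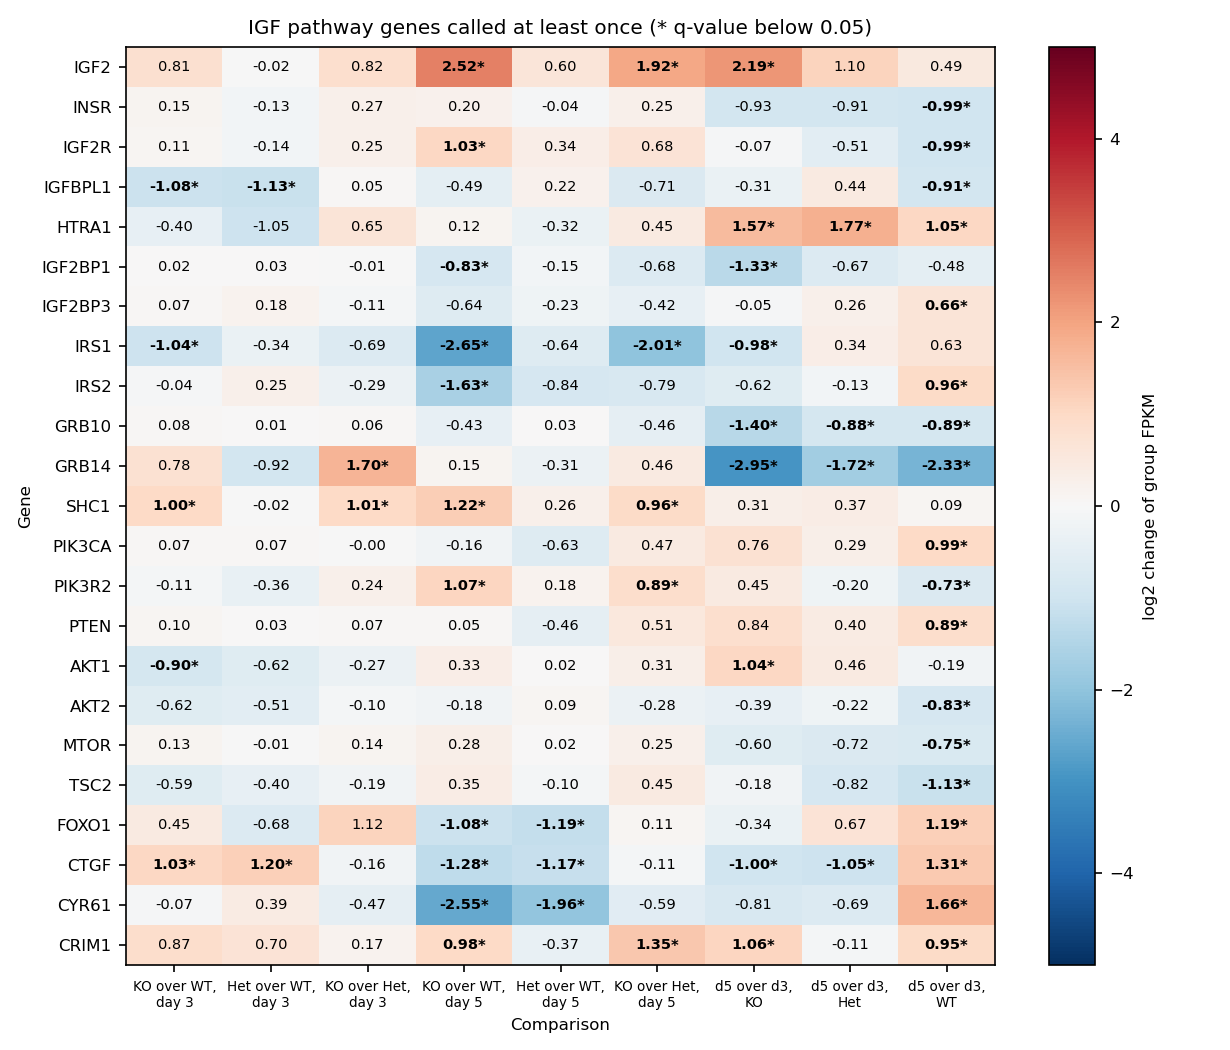
Log2 change of the group FPKM for 23 pathway genes called at least once (vertical axis) in the 9 comparisons (horizontal axis, with d5 and d3 for the days and WT for wild type), where red is higher and blue lower in the group named before "over", and an asterisk marks a q-value below 0.05 in the authors' deposited table. GRB14 is blue with an asterisk in all 3 day 5 over day 3 columns, and IRS1 reaches -2.65 in KO over wild type at day 5.

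Genes whose pattern over the 6 groups was most like that of the 3 most variable members were sought among the 8361 genes reaching 10 FPKM somewhere, by Pearson's r of log2(FPKM + 1). For IGFBP3 they were SRI (r = 0.991), RAC1 (0.990) and NEIL2 (0.989), each highest in KO at day 5. SRI had 134 FPKM in that group, against 49.3 FPKM in Het and 60.5 FPKM in wild type. RAC1 spanned only 122 to 189 FPKM over the groups and NEIL2 7.39 to 14.8 FPKM, much narrower ranges than that of IGFBP3. For PAPPA they were YRDC (0.991), LRRN3 (0.986) and ACTL6A (0.986). LRRN3 had 12.2 FPKM in KO, 7.51 FPKM in Het and 3.43 FPKM in wild type at day 3. YRDC spanned only 13.7 to 18.9 FPKM over the groups and ACTL6A 61.7 to 86.6 FPKM. A high r therefore does not mean a change of the same size. For IGFBP7, whose levels carry the large errors given above, they were NCSTN (0.990), LAPTM4A (0.985) and ALDH9A1 (0.980). Among the 10 genes themselves, IGFBP2 and PAPPA were the most opposed (r = -0.87 over the 6 groups). With 6 points that share lines and days, such values describe these groups only.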

How the data were processed

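Poly-adenylated RNA of 16 libraries was sequenced. Per the submitters' processing notes the tools were TopHat2 2.1.1 and Cuffdiff 2.2.1 and the build hg19. For the annotation, a version is not given in the sources used here. A table of 349260 lines covers 23284 genes and 15 comparisons of 6 groups, of which 9 were used. Its values are FPKM per gene and group, as deposited by the authors. Fold changes, deposited as log2, were recomputed here from the FPKM with no pseudocount. The deposited test score equals a change in natural-log units divided by its error, which gave the SE of each change. Solving these per group gave each group's SE, which fitted 13408 genes to a median relative error of 5.67e-06. The p-value (smallest 5e-05) and q-value are the authors' own, as deposited. Benjamini-Hochberg adjustment of all 222234 p-values returns the q-values to within 5.28e-07. The deposited p-values are smaller than a normal reading of the score, so a change under 2 SE can be called.

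The group HOMO in the table was read as KO. Per day there were 4 libraries labelled wild type, while the table pools wild type into 1 group for each day, from libraries it does not name. Depth per library is unknown. Nothing says that replicates came from separate cultures, so p-values may measure technical spread.

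The 10 genes, the pathway and marker lists and the tests were chosen with earlier results of these data known. Named were all 10 genes, FOXB1, the 3 largest called rises and falls of the pathway list per comparison, the 3 genes most like each of the 3 most variable members, and marker genes beside a result. The values of 1 pathway gene that met this rule are not reported here, though the counts include it. Calls remade from the implied SE were tested on simulated data. GC content was taken for 92.4% of genes, in 20 bins. Python 3.11.15, pandas 2.3.3 and scipy 1.17.1 were used.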

Additional observations from a re-analysis of the deposited data

How the results depend on the processing

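No paired analysis was possible because the deposited columns hold group values, with none per library; for the same reason no replicate could be left out. Over the other settings no log2 change of the 10 genes turned its direction where it was called. Centring on the median of genes at 1 FPKM or more in both groups shifted changes by at most 0.06. Of 90 changes, 81 moved by less than 1 SE with centring on the median or the chromosome or with 0.1 FPKM added, 78 within bins of GC content and 76 with 1 FPKM added. The moved ones were all 9 of IGFBP6, which has no SE, together with IGFBP4 within GC bins (0.48 for KO and -0.10 for Het over wild type at day 3, and 0.26 for day 5 over day 3 in wild type) and PAPPA with 1 FPKM added, in 5 comparisons.

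Calls among the 10 genes went to 2 in place of 4 for Het over wild type at day 3 with a 2-fold minimum (4.84% of all genes), to 1 in place of 2 for Het over wild type at day 5 with q below 0.01 (0.934%) or with adjustment within the comparison (0.762%), and to 1 in place of 2 for Het over time with at least 1 FPKM in both groups (6.77%). This minimum took 6 of the 7 PAPPA calls, though the other counts stayed within 1.5 times. Within GC bins IGFBP2 was called higher over time in wild type. STC2 was called higher over time in Het whenever calls were remade from the implied SE, with or without centring or GC bins. Its q-value there was 0.0520 in the authors' deposited table. For the pathway list, a 2-fold minimum left 3 of 5 calls for KO over wild type at day 3 (7.15% of all genes), 3 of 5 for KO over Het at day 5 (7.31%) and 7 of 19 for wild type over time (13.6%). With q below 0.01 there were 1 of 2 for KO over Het at day 3 (1.37% of all genes; 1 also with adjustment within the comparison, 1.41%), 3 of 5 for KO over Het at day 5 (4.61%), 5 of 9 for KO over time (6.94%) and 2 of 4 for Het over time (3.51%). Within GC bins 1 of 2 was left for Het over wild type at day 3 (1 higher, 0 lower, 5.22% of all genes), and 12 calls were made against 19 for wild type over time (7 higher, 5 lower, 16.7%). KO over wild type at day 3 within GC bins had 3 higher and 1 lower, against 2 and 3 (8.80%). The cause was not tested, beyond the stricter thresholds. Depth is unknown, and levels near or under 1 FPKM (PAPPA in 4 groups, IGFBP6) carry the least information.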
